A study of Bos taurus with 33 samples.

Results

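The 8 enzymes described here make and use the sugar nucleotides from which hyaluronan is built, and they were taken by gene symbol from the transcript tables of bovine oocytes and of the cumulus cells (CC) that surround them. They are GFPT1 (ENSBTAG00000017626), GFPT2 (ENSBTAG00000002215), GNPNAT1 (ENSBTAG00000005344), PGM3 (ENSBTAG00000000679), UAP1 (ENSBTAG00000010206), UGP2 (ENSBTAG00000000111), UGDH (ENSBTAG00000014521) and OGT (ENSBTAG00000000902), 8 of the 17543 genes listed for either cell type. Each symbol matched the same Ensembl gene in both tables. Abundance is in CPM, reads of a gene per 1000000 reads on genes. All 8 passed the filter on low abundance in both tables, which asked for 5 CPM or more in 4 pools of oocytes or in 5 pools of CC.

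The hexosamine pathway takes fructose 6-phosphate out of glycolysis, adds an amino group from glutamine, and ends in UDP-N-acetylglucosamine. A parallel branch turns glucose 1-phosphate into UDP-glucose and then into UDP-glucuronic acid. Hyaluronan synthases join the end products of both branches into hyaluronan, the polymer that fills the matrix of cumulus cells as they expand after the gonadotropin surge. UDP-N-acetylglucosamine is also the sugar donor for the O-GlcNAc modification of nuclear and cytoplasmic proteins.

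Transcripts were measured in 33 pools, each made from 4 cumulus-oocyte complexes, in suckled postpartum Hereford-Angus crossbred beef cows in which the largest follicle was aspirated. All cows received gonadotropin-releasing hormone (GnRH) on day -9 and prostaglandin F2α on day -2. In the small (up to 11.7 mm; 6 oocyte and 6 CC pools) and large (12.7 mm or more; 6 and 6 pools) classifications no estrus was seen and a second GnRH injection was given on day 0. In the spontaneous classification (11.7 to 14.0 mm; 4 oocyte and 5 CC pools) estrus was expressed and no second GnRH was given, so follicle size and the origin of the surge cannot be told apart in comparisons with it. The labels give about 20 h from GnRH or estrus to collection in one field and about 23 h in another. CC pools were made from the complexes that gave the oocyte pools, so the cell types share cows, but oocyte and CC pools were not matched by number here. Within a cell type a pool is the unit of replication, and a p-value sets a difference between classifications against the spread between pools. Each pool joins 4 complexes, so the spread between single complexes was not measured.

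The number of reads on genes ranged from 7664375 to 17934916 over oocyte pools and from 1911600 to 5772431 over CC pools. A count of 0 allows up to 3 reads, which is at most 0.391 CPM in oocytes and 1.57 CPM in CC. These limits cover counting error only. Mitochondrially encoded transcripts took 0.804 to 4.76% of the reads in oocyte pools and 12.4 to 42.9% in CC pools. The highest shares were in small oocyte replicate 3 and small CC replicate 3, which were also the shallowest libraries of their cell type. All 10 oocyte markers were read in oocytes, where they summed to 6920 to 10821 CPM. In CC 5 of these 10 were listed, and they summed to 1.57 to 13.7 CPM. The 12 cumulus and granulosa markers summed to 3509 to 8827 CPM in CC and to 431 to 1041 CPM in oocytes. In oocytes most of that sum was STAR (258 to 464 CPM) and HAS2 (132 to 248 CPM). INHA reached 138 CPM there (median 30.9), INHBA 115 CPM (median 24.1), TNFAIP6 116 CPM (median 7.82) and FST 34.8 CPM (median 6.38). FSHR ranged from 0 to 8.8 CPM, and AMH, CYP11A1, CYP19A1, GATM and PTX3 reached at most 17.7 CPM. The versican transcript VCAN, a hyaluronan-binding proteoglycan that reached 8357 to 28109 CPM in CC, was read at 272 to 3427 CPM in the denuded oocytes. The part of carried-over CC RNA in the oocyte values of the 8 enzymes was not tested.

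The first step of the pathway, and its rate-limiting one, is run by glutamine:fructose-6-phosphate transaminase. Of its 2 genes, GFPT1 had a higher median in oocytes than in CC, and GFPT2 a higher median in CC than in oocytes. GFPT1 ranged from 250 to 490 CPM in oocytes (median 380, n = 16) and from 29.8 to 119 CPM in CC (median 58.3, n = 17). Its oocyte median was 6.52 times the CC median, and the lowest oocyte pool lay above the highest CC pool. GFPT2 ranged from 46.6 to 151 CPM in oocytes (median 109) and from 118 to 393 CPM in CC (median 239). The CC median was 2.19 times the oocyte median, but the ranges overlapped. The oocyte and CC tables were scaled separately and no test was made across them. In bulk CC pools, a shift in the mix of cell types and a change in RNA per cell cannot be told apart.

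Within a pool the ratio of GFPT2 to GFPT1 does not depend on the scaling. The ratio of their CPM had a median of 0.272 in oocytes (0.106 to 0.534, n = 16) and of 4.04 in CC (1.32 to 7.25, n = 17), with no overlap between the cell types. Because CPM are not divided by transcript length, the distance of a ratio from 1 carries no meaning, whereas its difference between cell types does. Among oocytes the median ratio of small pools was 0.355, that of large pools 0.272 and that of spontaneous pools 0.209, with overlapping ranges. In CC it was 4.88 in small pools (1.32 to 7.25), 2.80 in large pools (1.98 to 3.85) and 4.53 in spontaneous pools (3.23 to 5.31). The ranges of the 3 CC classifications overlapped as well.

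**Figure D1:**
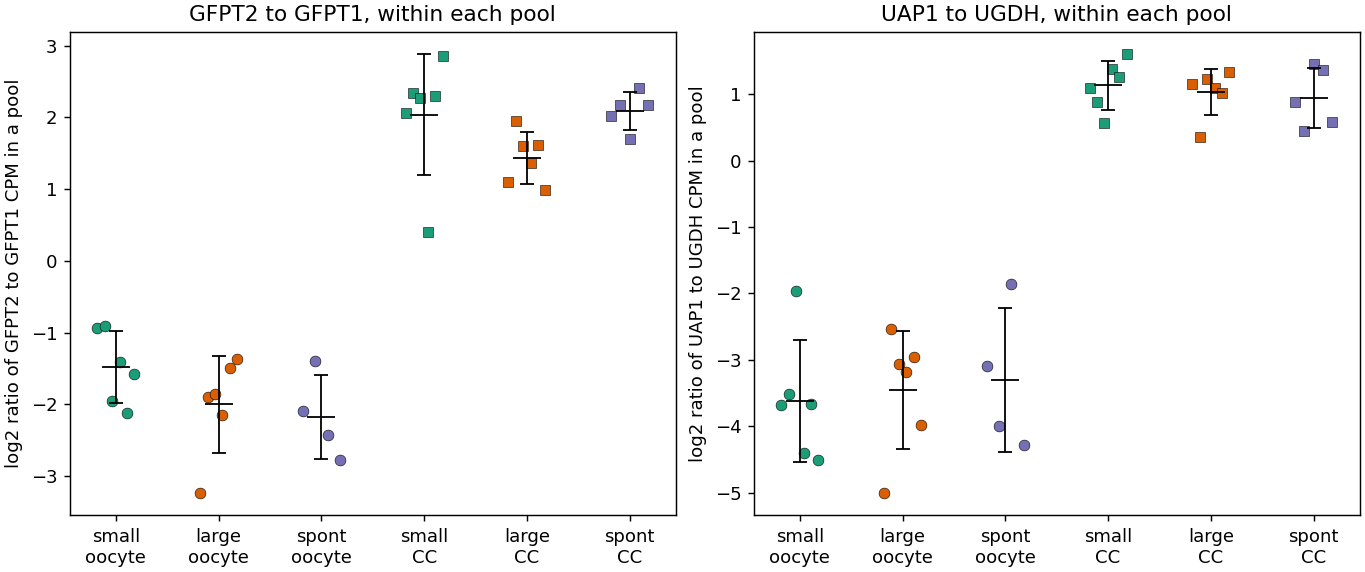
Log2 of the ratio of GFPT2 to GFPT1 CPM (left) and of UAP1 to UGDH CPM (right) within each pool, by cell type and follicle classification. Circles are oocyte pools, squares are CC pools, and bars are the mean ± SD. For both ratios every CC pool lies above every oocyte pool.

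The next 3 enzymes acetylate the amino sugar, move its phosphate and attach it to UDP. GNPNAT1, the acetyltransferase, was at similar levels in the cell types. It ranged from 13.5 to 69.0 CPM in oocytes (median 32.5) and from 18.4 to 60.5 CPM in CC (median 35.6). PGM3, the phosphoacetylglucosamine mutase, ranged from 2.37 to 36.7 CPM in oocytes (median 9.10) and from 48.3 to 99.8 CPM in CC (median 64.0), a 7.03-fold higher median in CC. UAP1, the pyrophosphorylase that yields UDP-N-acetylglucosamine, ranged from 3.34 to 39.3 CPM in oocytes (median 12.8) and from 103 to 240 CPM in CC (median 150). Its CC median was 11.7 times the oocyte median. Neither PGM3 nor UAP1 overlapped between the cell types.

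The oocyte levels of these 2 enzymes were uneven. PGM3 stood at 36.7 and 31.5 CPM in large oocyte replicates 3 and 6, whereas the other 14 oocyte pools held 2.37 to 13.2 CPM. In those 2 pools VCAN was at 638.5 and 2909 CPM, and TNFAIP6, which encodes a hyaluronan-binding protein of the cumulus matrix, at 6.92 and 116 CPM. UAP1 was highest in small oocyte replicate 3, at 39.3 CPM, where VCAN (3427 CPM) was at its oocyte maximum and TNFAIP6 was at 57.1 CPM. It was next highest in spontaneous oocyte replicate 3, at 25.9 CPM, where VCAN was at 2077 CPM. Large oocyte replicate 6, with VCAN at 2909 CPM, held only 9.64 CPM of UAP1. The part of CC RNA in these values was not tested.

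The branch to UDP-glucuronic acid has 2 of the 8 enzymes. UGP2, which makes UDP-glucose, was the least variable of the 8 in oocytes (coefficient of variation 14.0%). It ranged from 97.0 to 159 CPM there (median 136) and from 133 to 255 CPM in CC (median 190), with overlap. UGDH, the dehydrogenase that oxidises UDP-glucose to UDP-glucuronic acid, was higher by median in oocytes, at 135 CPM (94.1 to 189) against 71.3 CPM in CC (50.7 to 114), again with overlap. The ratio of UGDH to UGP2 had a median of 0.986 in oocytes and of 0.434 in CC. The ratio of UAP1 to UGDH, the last enzyme of each branch, had a median of 0.0832 in oocytes (0.0311 to 0.275) and of 2.14 in CC (1.28 to 3.03) and did not overlap.

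OGT, the transferase that places O-GlcNAc on proteins, ranged from 44.7 to 182 CPM in oocytes (median 119) and from 83.2 to 403 CPM in CC (median 174). In CPM as deposited its spread in CC was the widest of the 8, with a coefficient of variation of 43.5%. Its 2 extremes were then both small CC pools. The lower one, replicate 3, had 42.9% of its reads from mitochondrially encoded genes. Without those genes OGT ranged from 134 to 508 CPM in CC, and the lowest pool was a large one. MGEA5, the older symbol of OGA, which removes O-GlcNAc, had a median of 42.9 CPM in oocytes and 87.6 CPM in CC.

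In all, 3 of the 8 enzymes did not overlap between oocytes and CC, 1 higher in oocytes and 2 in CC. Over all 11431 transcripts listed in both tables and retained in either, 36.3% did not overlap (22.9% higher in oocytes and 13.4% in CC), so the share among the enzymes was near that of all transcripts. When CPM were recomputed without mitochondrially encoded genes, UGP2 joined them, with 97.9 to 161 CPM in oocytes and 170 to 318 CPM in CC. GFPT1, PGM3 and UAP1 were still without overlap on that scale, where 37.5% of all transcripts did not overlap.

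**Figure D2:**
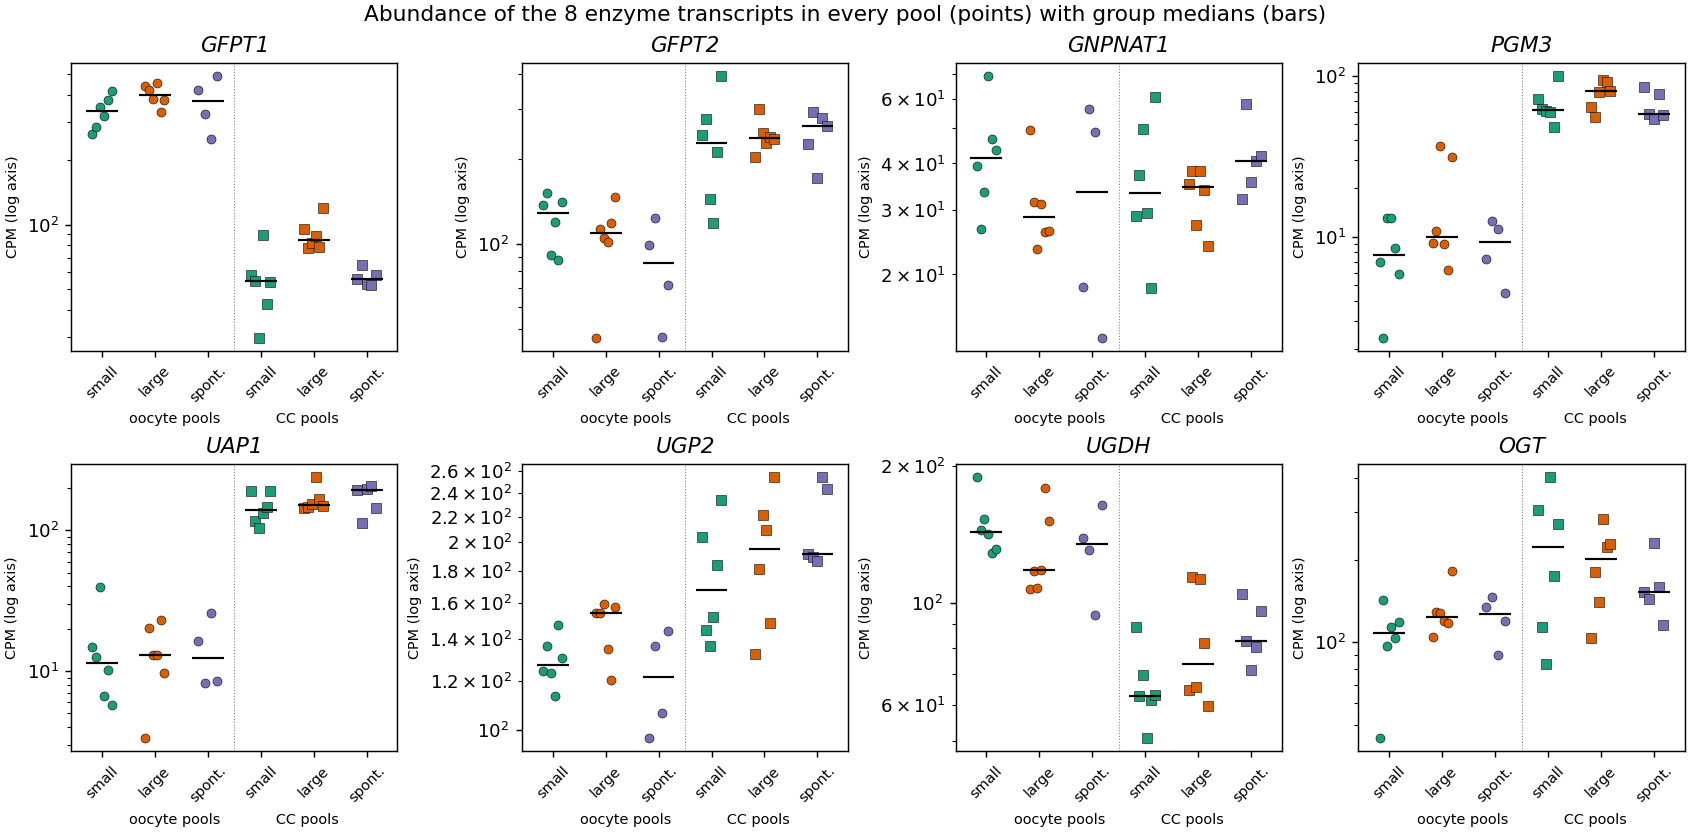
CPM (log axis) of the 8 enzyme transcripts in each of 16 oocyte pools (circles) and 17 CC pools (squares), by follicle classification, with bars at group medians. GFPT1 lies higher in every oocyte pool than in any CC pool, and PGM3 and UAP1 lie lower.

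Other genes of the pathway are grouped by role in 5 lists of 62 symbols in all, older and newer names counted separately. Of the 40 listed in both tables and retained in either, 17 (42.5%) did not overlap between cell types, 10 higher in oocytes and 7 in CC. GLUL, the glutamine synthetase, had a median of 1771 CPM in oocytes and 154 CPM in CC. UXS1, which turns UDP-glucuronic acid into UDP-xylose, had medians of 252 and 27.2 CPM. HK2, a hexokinase at the head of glycolysis, lay the other way, at 9.89 CPM in oocytes and 140 CPM in CC. TNFAIP6 had medians of 7.82 and 1302 CPM. HAS2, the hyaluronan synthase of the expanding cumulus, had a higher median in oocytes (186 CPM) than in CC (50.5 CPM), with ranges that overlapped.

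Follicle classifications were then compared within each cell type, which asks whether the precursor enzymes differed with follicle size and with the origin of the surge. Log2 fold changes are differences between means of log2(CPM + 1), the classification named first being subtracted, which understates the change of low transcripts. They were tested with limma, and a transcript was called at a nominal p of 0.01 or less. GFPT1 in CC was the only one of the 8 to be called in any of the 6 comparisons. It was higher in large than in small pools and lower in spontaneous than in large pools.

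In small CC pools GFPT1 stood at 58.3, 54.8, 29.8, 89.6, 42.8 and 54.2 CPM in replicates 1 to 6. In large CC pools it stood at 95.2, 77.9, 81.7, 88.4, 78.4 and 119 CPM. In spontaneous CC pools it stood at 56.0, 65.0, 53.0, 52.4 and 58.0 CPM. All large pools lay above all spontaneous pools, and they lay above 5 of the 6 small pools, since small replicate 4 reached into the large range. The means were 54.9 ± 20.0 (SD, n = 6), 90.2 ± 15.7 (n = 6) and 56.9 ± 5.0 CPM (n = 5).

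From small to large CC pools GFPT1 rose by 0.76 on the log2 scale (SE 0.23, limma, nominal p = 0.00348, adjusted p = 0.999 over 9712 transcripts, exact two-sided permutation test of mean CPM p = 0.0108). Across all retained CC transcripts 0.813% were called in this comparison, 0.69% as higher in large pools, and GFPT1 had rank 26 by p. Without large CC replicate 6, its highest pool, the fold change was 0.68 and the call was lost. Small CC replicate 3 was the shallowest CC library, with 42.9% of reads from mitochondrially encoded genes, and held the least GFPT1. Without it the fold change was 0.61 and GFPT1 was still called.

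From large to spontaneous CC pools GFPT1 fell by 0.64 on the log2 scale (SE 0.16, limma, nominal p = 0.00097, adjusted p = 0.515, exact permutation p = 0.00433). That is the smallest p this permutation test can give with 6 and 5 pools. Of all retained CC transcripts 1.66% were called, 0.206% as lower in spontaneous pools, and 0.865% had pools that did not overlap. GFPT1 had rank 16 by p. It was called under each of the 10 other settings and with each of the 11 pools left out in turn, with fold changes from -0.77 to -0.56. DESeq2 on the recovered reads gave -0.77 (adjusted p = 0.0209), and 9 transcripts had an adjusted p under 0.05 there. In edgeR, and in limma with TMM or median-of-ratios factors, 0 transcripts had an adjusted p under 0.05 in this comparison. Both comparisons share the large pools, so they are not independent of each other.

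From small to spontaneous CC pools GFPT1 was not called (0.12, limma, 95% interval -0.36 to 0.61, adjusted p = 0.913), and the sign of this value turned with the scaling, to -0.04 without mitochondrially encoded genes. It was also -0.04 without small CC replicate 3. White blood cell markers, 11 of 11 listed, summed to 32.5 to 141 CPM in small, 32.2 to 224 CPM in large and 44.7 to 218 CPM in spontaneous CC pools, and oocyte markers to at most 13.7 CPM. Theca markers, 3 of 5 listed, summed to 112 to 905, 197 to 564 and 229 to 1168 CPM in the same order. Of these INSL3 was at 108 to 1162 CPM over all CC pools and CYP17A1 at most at 0.781 CPM. Endothelial markers, 9 of 9 listed, summed to 14.6 to 73.8, 7.38 to 36.2 and 27.4 to 61.2 CPM. The share of mitochondrially encoded reads had medians of 22.9, 21.0 and 15.3%. The part of these cell types' RNA in the GFPT1 differences was not tested. With CPM recomputed without mitochondrially encoded genes GFPT1 was called at 0.66 from small to large and at -0.71 from large to spontaneous pools.

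**Figure D3:**
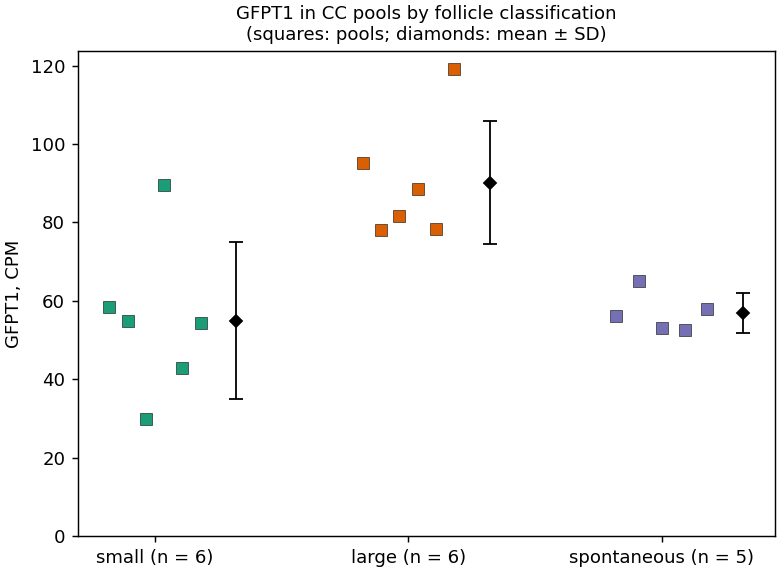
GFPT1 abundance (CPM) in CC pools from small, large and spontaneous follicles. Squares are pools and diamonds the mean ± SD. The 6 large pools lie between 77.9 and 119 CPM, above all 5 spontaneous pools, while 1 small pool reaches 89.6 CPM.

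The other 7 enzymes were not called in CC. UGDH came nearest, with 50.7 to 88.6 CPM in small pools (median 62.8), 59.6 to 114 CPM in large pools (median 73.7) and 105, 82.7, 71.3, 80.2 and 96.1 CPM in spontaneous pools. Its log2 difference from small to spontaneous pools was 0.40 (SE 0.18, limma, nominal p = 0.0407, adjusted p = 0.572, exact permutation p = 0.026), and 8.55% of all retained CC transcripts reached an unadjusted p of 0.05 in this comparison. The median over all retained CC transcripts was itself 0.16, and without mitochondrially encoded genes the UGDH difference was 0.24. None of the 8 enzymes was called from small to spontaneous CC pools, against 2.38% of all transcripts, a share that was 1.28 to 1.32% with TMM or median-of-ratios factors, edgeR or CPM without mitochondrially encoded genes.

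GFPT2, the other gene of the first step, was not called in CC. Its means were 231 ± 99.1 CPM in small pools, 243 ± 31.9 CPM in large pools and 247 ± 48.9 CPM in spontaneous pools, and its log2 difference from large to spontaneous pools had a 95% interval of -0.34 to 0.35. UAP1 had CC means of 146 ± 37.1, 167 ± 36.8 and 170 ± 40.1 CPM in the same order. PGM3 had 67.1 ± 17.7, 77.6 ± 15.2 and 66.5 ± 14.0 CPM. GNPNAT1 had 37.3 ± 15.4, 32.8 ± 5.9 and 41.6 ± 9.96 CPM, UGP2 had 176 ± 38.3, 191 ± 46.1 and 213 ± 33.0 CPM, and OGT had 225 ± 123, 193 ± 64.9 and 161 ± 42.4 CPM. In each of these 6 genes the 3 classifications overlapped and no nominal p reached 0.05 in limma, as 4% of all transcripts did from small to large and 7.07% from large to spontaneous pools.

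In oocytes 0 of the 8 enzymes were called in any comparison by limma, edgeR or DESeq2, and with all pools and CPM as deposited 0 had an unadjusted p of 0.05 or less in limma, as 4.11, 4.51 and 4.87% of all transcripts did. Of all 10076 retained oocyte transcripts 0.655% were called from small to large pools, 0.774% between small and spontaneous pools and 0.943% between large and spontaneous pools. GFPT2 came nearest, with means of 121 ± 26.8 CPM in small, 105 ± 33.0 CPM in large and 85.2 ± 33.3 CPM in spontaneous oocyte pools (small to spontaneous -0.56, 95% interval -1.14 to 0.01, limma, nominal p = 0.0529, exact permutation p = 0.0952). It was at -0.58 without mitochondrially encoded genes, -0.61 with median-of-ratios size factors and -0.64 without small oocyte replicate 3, each with an unadjusted p under 0.05 and none called. GFPT1 had oocyte means of 336 ± 58.9, 402 ± 45.2 and 372 ± 106 CPM in the same order (small to large 0.27, 95% interval -0.02 to 0.56, limma, nominal p = 0.0698, exact permutation p = 0.0519). OGT had 103 ± 32.9, 130 ± 26.7 and 123 ± 24.6 CPM. UGP2 had 129 ± 11.8, 147 ± 15.7 and 121 ± 22.8 CPM and UGDH 148 ± 22.0, 130 ± 28.8 and 132 ± 29.0 CPM.

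The 3 low oocyte transcripts were known less closely. PGM3 had oocyte means of 8.34 ± 4.25 CPM in small pools, 17.3 ± 13.2 CPM in large pools and 8.85 ± 3.66 CPM in spontaneous pools, and its interval from small to large pools ran from -0.31 to 1.95 on the log2 scale. UAP1 had 14.9 ± 12.4, 13.7 ± 7.14 and 14.7 ± 8.33 CPM. GNPNAT1 had 43.1 ± 14.6, 31.3 ± 9.35 and 34.2 ± 21.4 CPM. Intervals of this width leave room for differences of 2-fold and more in either or both directions.

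**Figure D4:**
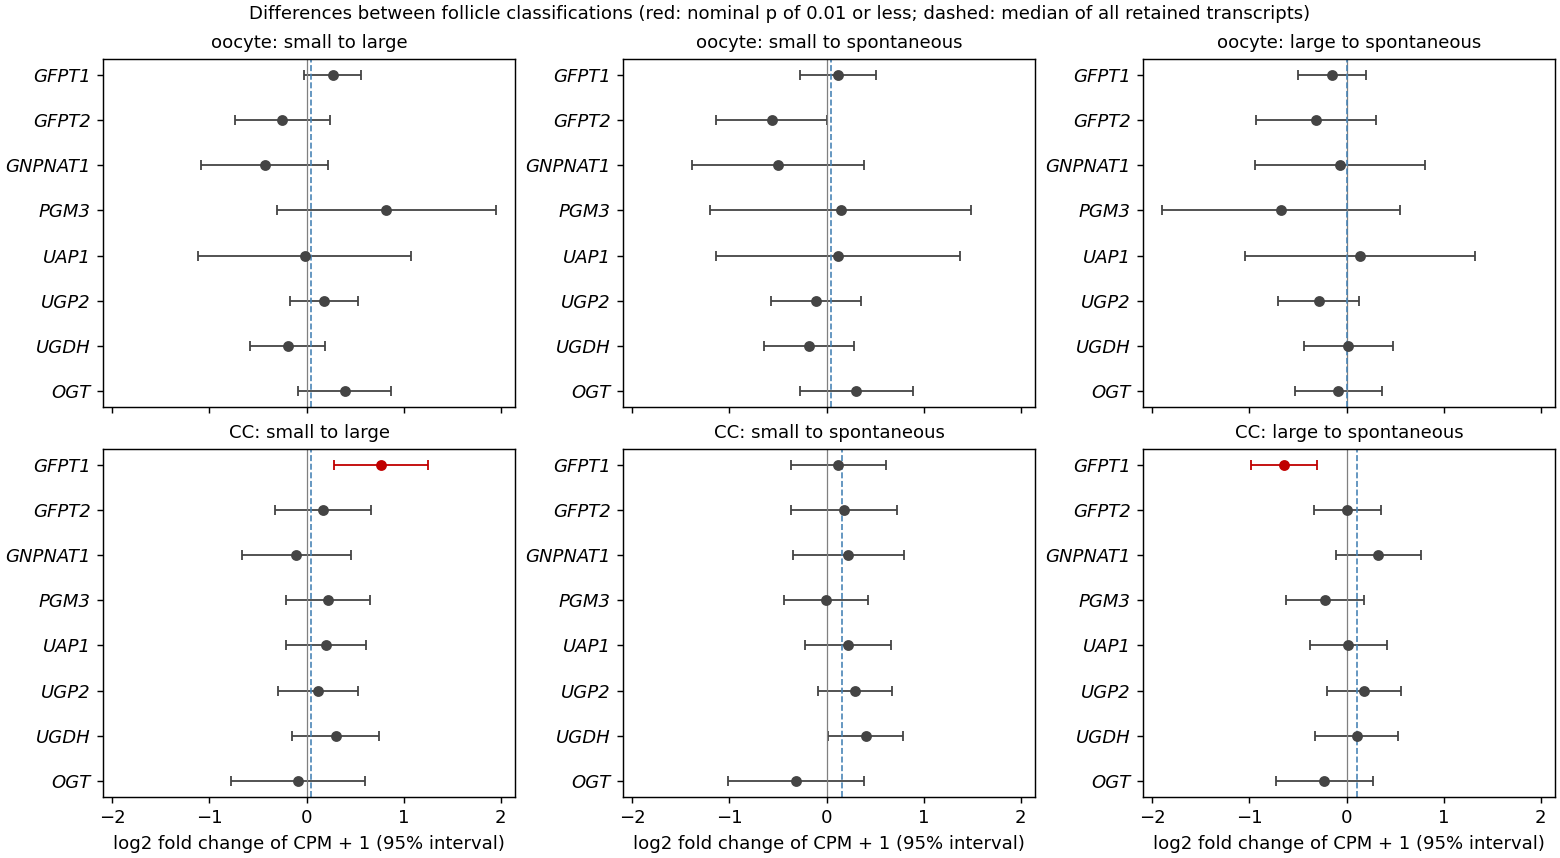
Log2 fold changes of the 8 enzymes between follicle classifications, in oocytes (upper row) and CC (lower row), with 95% intervals from limma. Red marks a nominal p of 0.01 or less, reached by GFPT1 in CC from small to large (0.76) and from large to spontaneous pools (-0.64). Dashed lines mark the median of all retained transcripts.

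The median log2 fold change of the 8 enzymes in CC was 0.19 from small to large pools, 0.20 between small and spontaneous pools and 0.01 between large and spontaneous pools, beside 0.05, 0.16 and 0.11 over all retained transcripts. Of the 8, 6, 6 and 5 had values above 0. In oocytes the medians were 0.08, 0.01 and -0.12, beside 0.05, 0.05 and 0.01 over all transcripts, and 4, 4 and 2 had values above 0.

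In CC 39 of the other pathway genes were retained. From small to large pools 4 of them were called, each higher in large pools, beside 0.813% of all transcripts called and 0.69% called as higher. They were 3 of the 9 retained genes that feed sugar or glutamine into the pathway and 1 of the 11 retained hyaluronan genes. The study, which required both edgeR and DESeq2, had already reported all 4 as higher in large than in small CC pools. The lists were chosen with earlier results of these data known. Counts of calls among them therefore cannot be read as an excess over all transcripts. SLC2A1, the glucose transporter GLUT1, rose from 88.9 to 123 CPM in small pools to 150 to 405 CPM in large pools, with no overlap (log2 difference 0.99, SE 0.21, limma, adjusted p = 0.522), which was so for 0.247% of all transcripts. HK2 rose by 0.58, from a mean of 89.6 ± 8.7 to 139 ± 34.5 CPM. GPI, the isomerase that makes fructose 6-phosphate, rose by 0.57, from 276 ± 57.6 to 409 ± 73.7 CPM. VCAN rose by 0.71, from 12999 ± 3582 to 20998 ± 4630 CPM. The exact permutation p was 0.0152 for HK2, 0.013 for GPI and 0.00649 for VCAN, and these 3 calls were lost under other scalings. Without mitochondrially encoded genes the log2 differences were 0.47 for HK2, 0.46 for GPI and 0.60 for VCAN. With median-of-ratios size factors they were 0.53, 0.52 and 0.66. SLC2A1 was called under both, and all 4 had an unadjusted p of 0.05 or less under both.

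From small to spontaneous CC pools 3 of the 39 were called, all higher in spontaneous pools, as were 2.28% of all transcripts. The study had also reported HK2 as higher in spontaneous than in small CC pools. HK2 rose by 0.85 to a mean of 168 ± 48.5 CPM and SLC2A1 by 0.74 to 193 ± 50.4 CPM. Neither overlapped with the small pools, which held for 1.16% of all transcripts. GALK2, a kinase of N-acetylgalactosamine, rose by 1.15, from 6.85 ± 4.86 to 14.2 ± 3.75 CPM. Its call was lost without mitochondrially encoded genes (1.05) and with median-of-ratios size factors (1.03), under which HK2 and SLC2A1 were still called. From large to spontaneous pools 0 of the 39 were called in limma, against 1.66% of all transcripts. An unadjusted p of 0.05 or less in limma was reached by 3 of them, against 7.07% of all transcripts. GALK2 was not called there, but rose from a mean of 7.12 to 14.2 CPM without overlap, as for 0.865% of all transcripts. Its exact permutation p was 0.00433, the smallest this test can give. HAS2 in CC was at 19.4 to 146 CPM in small, 41.5 to 134 CPM in large and 32.2 to 176 CPM in spontaneous pools and was not called, nor were TNFAIP6, GLUL, MGEA5 and UXS1.

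In oocytes 36 of the other pathway genes were retained and 0, 1 and 1 were called from small to large, small to spontaneous and large to spontaneous pools. ALG13, a subunit of the transferase that adds N-acetylglucosamine to the lipid carrier of N-glycans, fell by 0.52 from small to spontaneous pools, from 405 ± 38.1 to 285 ± 58.9 CPM, where 0.248% of all transcripts were called as lower. Its ranges overlapped through spontaneous replicate 4, at 372 CPM, and small replicate 1, at 355 CPM. In the same comparison GALT, the uridylyltransferase that swaps UDP between glucose and galactose phosphates, had a log2 difference of 1.04 without overlap, as for 0.903% of all transcripts, but was not called. GALT rose by 1.10 from large to spontaneous pools, from 24.7 ± 8.30 to 52.8 ± 15.8 CPM, where 0.397% were called as higher. Its pools did not overlap, as for 0.913% of all transcripts, against 0.258% from small to large pools.

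The 8 transcripts followed each other only loosely from pool to pool. Over the 17 CC pools the highest Pearson correlation of log2(CPM + 1) between any 2 of them was 0.58, for PGM3 and UAP1, and GFPT1 with GFPT2 gave 0.06. Over the 16 oocyte pools the highest was 0.55, for GFPT2 and UGDH. In CC the transcript most like GFPT1 was TLN1 (r = 0.84), most like GFPT2 was SAV1 (0.84), most like GNPNAT1 was NUSAP1 (0.80) and most like PGM3 was PURG (0.81). Most like UAP1 was LATS1 (0.83), most like UGP2 was CBR4 (0.84), most like UGDH was PLIN3 (0.80) and most like OGT was KIAA0907 (0.91). In oocytes they were EYA4 for GFPT1 (0.78), QSER1 for GFPT2 (0.83), GYG1 for GNPNAT1 (0.84), GLRX5 for PGM3 (0.81), MT1A for UAP1 (0.85), JAG1 for UGP2 (0.80), ETHE1 for UGDH (0.78) and GNA13 for OGT (0.82). Each is the highest Pearson r over all retained transcripts with a symbol. A maximum over so many transcripts is high through selection alone. These values therefore cannot be set against those among the 8 enzymes. Spearman's rho was 0.49 for OGT and GNA13 and between 0.68 and 0.91 for the other pairs. Values of 1 pool come from 1 library, and the correlations are given as a description.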

How the data were processed

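The authors amplified the RNA of each pool, read the cDNA from one end, trimmed reads with fqtrim, aligned them to UMD3.1 with Hisat2 and counted them on Ensembl genes with FeatureCounts. The deposited unit is CPM, with 1 column per pool and 0 columns unmatched. Whole reads were recovered for 100% of values, within 0.01 read. The filter retained 10076 of 16279 oocyte genes and 9712 of 16244 CC genes. A check for libraries deposited more than once found no pair of pools of a classification within sampling noise (chi-square over its degrees of freedom at least 68.4 for oocyte pairs and 14.9 for CC pairs).

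Log2(CPM + 1) was compared between pairs of classifications with limma (trend, two-sided, no covariates) at a nominal p of 0.01, with Benjamini-Hochberg adjustment over all retained transcripts. With small oocyte pools, the test had to pass with and without small replicate 3. Because the deposited values are CPM, edgeR's quasi-likelihood test and DESeq2, the study's kind of test, were alternatives on recovered reads. They called 53 to 128 and 112 to 217 transcripts per comparison, against 66 to 231 for limma. In limma 0, 0 and 0 oocyte and 0, 3 and 1 CC transcripts had an adjusted p under 0.05, with 388 to 830 per comparison at an unadjusted p under 0.05. Exact permutation tests compared mean CPM, two-sided. Tests were tried on simulated data with 4-fold changes, of which each test recovered 99.5 to 100% at a nominal p of 0.01. Of unchanged transcripts limma called 0.96 to 1.23%, edgeR 0.81 to 1.14% and DESeq2 1.26 to 1.77%. Changes as small as those of GFPT1 in CC were not simulated. R 4.3.3, limma 3.58.1, edgeR 4.0.16, DESeq2 1.42.0 and Python 3.11.15 were used.

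Named were the 8 enzymes, pathway-list genes past the threshold, 8 further pathway genes whatever their values, and the most correlated transcript of each enzyme in each cell type. The members and lists were chosen with earlier results of these data known. A genome or sequence of the build was not used here, so no coordinates or sequences are given.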

Additional observations from a re-analysis of the deposited data

Results flagged for a closer look

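Of 48 groups (8 enzymes in 6 groups of 4 to 6 pools), 4 held a pool set apart from the others by Dixon's criterion, where chance gives about 1 in 20. GNPNAT1 was at 49.2 CPM in large oocyte replicate 1, with the next pool at 31.5 CPM. UAP1 was at 39.3 CPM in small oocyte replicate 3, with the next at 14.8 CPM, and that library had the fewest reads and the highest mitochondrially encoded share (4.76%) of the oocyte pools. UAP1 was at 240.3 CPM in large CC replicate 4, with the next at 166 CPM, and TNFAIP6, at 3024 CPM, was also highest there among CC pools. OGT was at 182 CPM in large oocyte replicate 6, with the next at 129 CPM, and PGM3 (31.5 CPM) and TNFAIP6 (116 CPM) were high in the same pool. The causes were not tested.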

How the results depend on the processing

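The number of enzymes called was the same under each of 10 other settings in all 6 comparisons, and with each pool left out it ranged from 0 to 0 in the 3 oocyte comparisons and from small to spontaneous CC pools, was 1 throughout from large to spontaneous CC pools, and ranged from 0 to 1 from small to large CC pools, where the 0 came without large CC replicate 6 (GFPT1 at 0.68). From small to large CC pools GFPT1 ranged from 0.61 to 0.92 over pools left out. The number of pathway genes called from small to large CC pools fell from 4 to 1 with CPM recomputed without mitochondrially encoded genes and to 1 with median-of-ratios size factors, and from small to spontaneous CC pools it fell from 3 to 2 under both. The first of these settings moved the median of all CC transcripts from 0.05 to -0.06 from small to large and from 0.16 to 0.0014 from small to spontaneous pools. It also moved the log2 ratio of CC to oocyte medians from -2.71 to -2.28 for GFPT1, from 0.48 to 0.83 for UGP2 and from -0.92 to -0.55 for UGDH. Replicate numbers did not pair pools (correlations of same-numbered pools -0.19 to 0.22), and most pools did not correlate best with the pool of their own number. With the replicate number as a block the GFPT1 values were 0.76 from small to large and -0.56 from large to spontaneous CC pools, both still called, and the block changed 0 of the calls among the 8 enzymes. Over all transcripts the number of calls moved by more than 1.5 times in several settings. From small to spontaneous CC pools it was 231, against 124 to 128 with TMM or median-of-ratios factors, edgeR or CPM without mitochondrially encoded genes, and 141 without spontaneous replicate 5. From large to spontaneous CC pools it was 161, against 88 and 99 without spontaneous replicates 4 and 5. From small to large CC pools it was 79, against 137 with all 3 classifications in one fit and 52 without small replicate 5. In oocytes it was 66 from small to large pools, against 42 with no filter and 113 in DESeq2. From small to spontaneous oocyte pools it was 78, against 39 with no filter, 42 with the replicate block, 121 in DESeq2, and 130 and 49 without small and spontaneous replicate 3. From large to spontaneous oocyte pools it was 95, against 181 in DESeq2 and 145 without spontaneous replicate 2. The causes were not tested. Each enzyme had at least 32 reads in every pool.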
